A study of Homo sapiens with 18 samples.

Results

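The smooth muscle contractile genes considered here are TAGLN, ACTA2, ACTG2, MYL9, CNN1, CNN2, CALD1, TPM1, TPM2 and MYLK, taken because they serve as features of myoepithelial cells. They were found by gene symbol in the annotation of the array. All 10 were measured, each by 1 probe set that was annotated to that gene alone, among 18404 genes and 32321 probe sets in all. The cells were MCF10A, a long-established line of non-tumorigenic epithelial cells from the human breast, and expression was read on whole-transcript microarrays, 18 in all, as 6 groups of 3.

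These genes build and regulate the actin and myosin filaments with which smooth muscle contracts. In the mammary gland the same set is made by myoepithelial cells, the outer layer of the duct, which squeeze milk along it and also carry basal keratins. Many of the genes are switched on by serum response factor (SRF), which binds a promoter element called the CArG box, together with co-activators of the myocardin family that respond to the state of the actin cytoskeleton. The kinases LATS1 and LATS2 of the Hippo pathway restrain a pair of co-activators, YAP (encoded by YAP1) and TAZ (encoded by WWTR1), which act through TEAD transcription factors and also respond to actin tension. ESR1 encodes estrogen receptor alpha.

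In 2 groups the cells carried a lentiviral hairpin against LATS1 (shLATS1B) or hairpins meant for both kinases (shLATS1+2), and both groups were transfected with a control cDNA. The other 4 groups carried a non-targeting hairpin (shNT) and received YAP/TAZ plus ESR1 cDNA, YAP/TAZ cDNA, ESR1 cDNA or the control cDNA. The group with shNT and control cDNA is called the control. All cells were infected at a multiplicity of 5, kept for 4 days under 1.5 µg/ml puromycin and given 7 days or more to recover. Transfection was transient, in a medium that contained estrogen, and RNA was taken 5 days later. The labels do not say how many hairpin clones or infections stand behind a group, nor whether separate cultures gave its 3 arrays. P-values therefore speak only to how much these arrays vary.

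Levels are log2 intensities, on which 1 unit is a doubling. They can be compared between arrays for 1 gene but not between genes, since probe sets differ in brightness. Genes are called dim under 5.21, which is the percentile 30 of the means of all genes. In the fit over all genes, a gene was said to have risen, fallen or changed where limma's two-sided test gave an adjusted p under 0.05.

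The targeted gene LATS1 was read at 7.57 to 7.81 in the shLATS1B arrays, 7.67 to 7.85 in the arrays labelled shLATS1+2 and 8.80 to 8.96 in the control arrays. LATS2 was at 7.72 to 7.90 in the arrays labelled shLATS1+2 and 7.63 to 7.84 in the control arrays, so no fall of LATS2 was seen and that group is named by its label throughout. YAP1 (10.79 and 10.84) and WWTR1 (9.44 and 9.57) had no higher means with YAP/TAZ cDNA than in the control arrays. With YAP/TAZ plus ESR1 cDNA, WWTR1 rose 1.34-fold (log2 change 0.42 ± 0.089 SE; limma, adjusted p = 0.00152) and YAP1 did not pass (0.038 ± 0.075), and WWTR1 also rose 1.35-fold with shLATS1B (0.43 ± 0.089). Where in the transcripts their probe sets lie was not analysed here. ESR1 was read at 6.34 to 6.53 in the ESR1 cDNA arrays, 5.93 to 6.07 where both cDNAs were given, but also at 6.25 to 6.47 with shLATS1B and 6.35 to 6.46 in the arrays labelled shLATS1+2, against 5.60 to 5.83 with YAP/TAZ and 5.37 to 5.65 in the control arrays. The first principal component of all genes (47.3% of the variance) set the shLATS1B, shLATS1+2 and YAP/TAZ plus ESR1 arrays (scores 9.83 to 22.7) against the YAP/TAZ, ESR1 and control arrays (scores -23.0 to -10.3). The labels name no batch, so across that division a batch effect and a group effect cannot be told apart. Within most groups 1 array lay to one side in the 15 other cytoskeletal genes measured. The highest of its 3 was control array 1 in 13 of 15 and ESR1 array 1 in 11 of 15. The lowest of its 3 was array 3 labelled shLATS1+2 in 14 of 15, and array 1 of shLATS1B, of YAP/TAZ plus ESR1 and of YAP/TAZ in 12 of 15 each. Control array 1 enters all 5 comparisons with the control.

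Promoter sequence shows which of the 10 genes carry the SRF element close to a start site. RefSeq windows (GRCh38.p14) of 250 bases before to 50 after a start were on hand for 8 of the 10 genes, as 13 windows in all, and TAGLN and MYL9 were among the genes without one. A CArG box, read on both strands, has CC, then 6 bases that are all A or T, then GG. It was found for ACTG2, CNN2 and MYLK, in 3 of 13 windows, and in 454 of all 35116 windows (1.29%). A near match with 1 of the 6 central bases G or C was found for ACTA2 and CALD1, in 2 of 13 windows, against 6.94% of all windows. The TEAD motif CATTCC, read on both strands as CATTCC or GGAATG, was found for ACTA2, CALD1 and MYLK, in 4 of 13 windows, against 14.0% of all windows. No CArG box, near match or TEAD motif was present in the windows of CNN1, TPM1 or TPM2. A match describes these letters alone and does not show that a factor binds there.

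The 4 stretches that hold a CArG box, or the pair of near matches in ACTA2, are shown 5′ to 3′ on the gene's strand, each as the 200 bases before the start. Capitals mark CArG boxes, near matches and TEAD motifs that lie whole within the stretch.
ACTA2, chr10:88952774-88952973, minus strand: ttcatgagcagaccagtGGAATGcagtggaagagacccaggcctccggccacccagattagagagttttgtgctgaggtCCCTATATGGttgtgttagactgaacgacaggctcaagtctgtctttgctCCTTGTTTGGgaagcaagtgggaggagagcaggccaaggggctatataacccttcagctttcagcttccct
ACTG2, chr2:73892808-73893007, plus strand: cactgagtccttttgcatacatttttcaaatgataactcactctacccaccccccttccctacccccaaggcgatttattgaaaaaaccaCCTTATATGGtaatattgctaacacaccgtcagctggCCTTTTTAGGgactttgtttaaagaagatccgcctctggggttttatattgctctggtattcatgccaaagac
CNN2, chr19:1026408-1026607, plus strand: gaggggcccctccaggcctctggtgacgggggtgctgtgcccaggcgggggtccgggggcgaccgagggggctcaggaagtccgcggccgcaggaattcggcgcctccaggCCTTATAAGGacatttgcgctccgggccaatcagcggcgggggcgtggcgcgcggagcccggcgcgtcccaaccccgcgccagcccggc
MYLK, chr3:123620549-123620748, minus strand: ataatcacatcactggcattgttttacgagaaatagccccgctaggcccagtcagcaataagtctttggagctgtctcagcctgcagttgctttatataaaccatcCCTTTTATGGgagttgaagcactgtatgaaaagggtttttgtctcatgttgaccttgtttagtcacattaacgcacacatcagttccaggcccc

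The CArG boxes of ACTG2 began 110 and 73 bases before the start, that of CNN2 89 bases before it and that of MYLK 94 bases before it. In ACTA2, the smooth muscle actin gene, the near matches began 121 and 71 bases before the start and the TEAD motif 183 bases before it. Of the smooth muscle actin genes, ACTG2 thus had the full element near a start and ACTA2 near matches alone. The levels of these same genes, given below, moved in different ways.

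**Figure D1:**
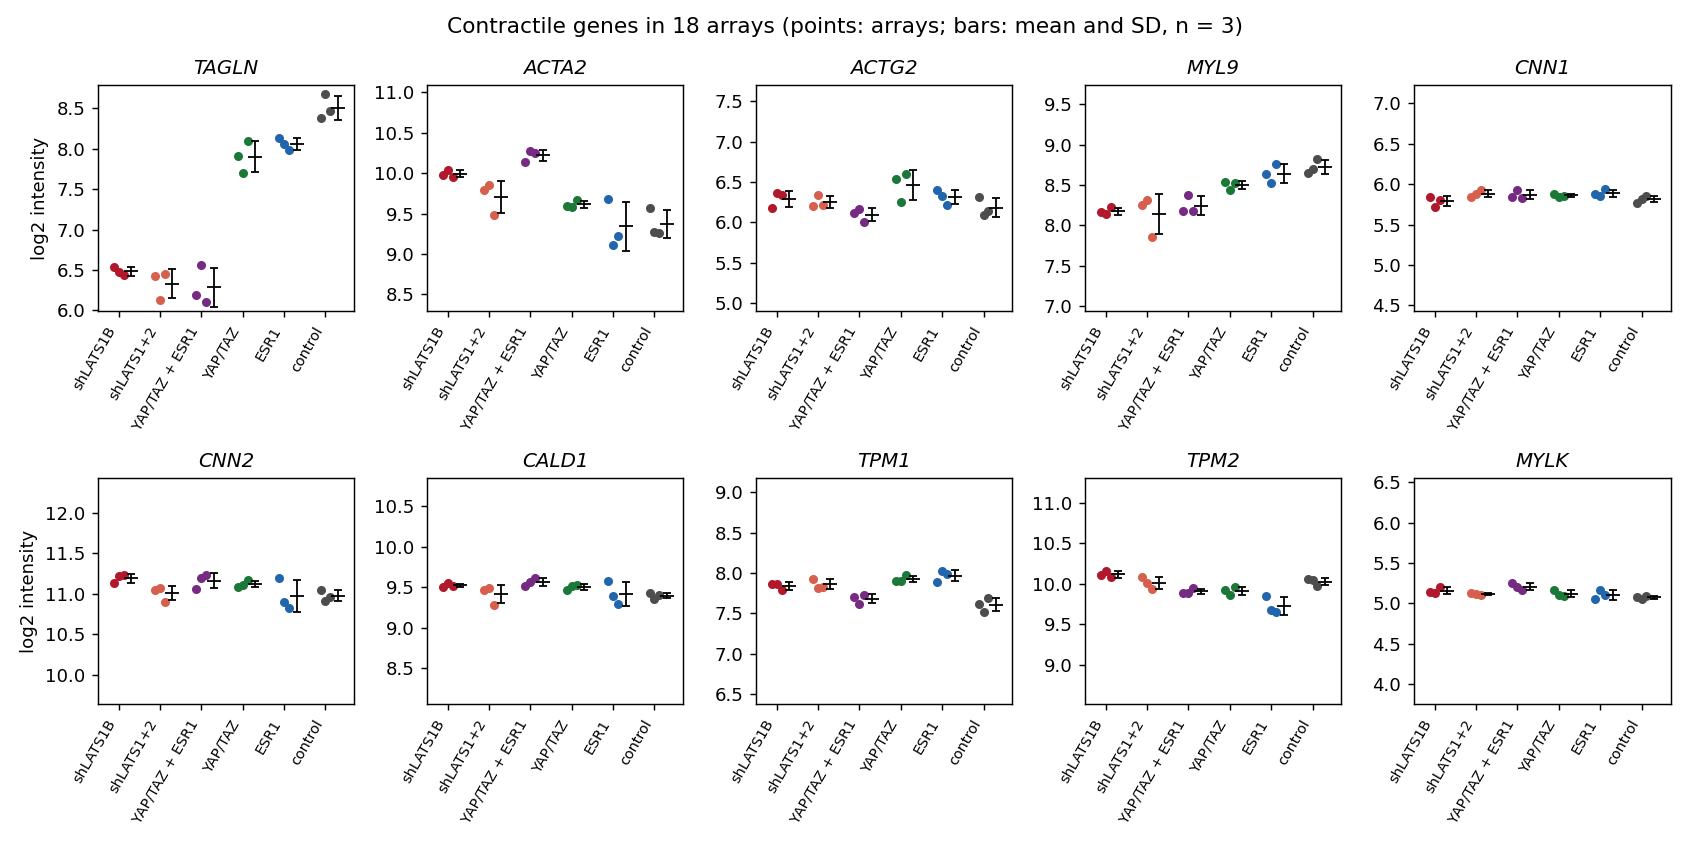
Log2 intensity (vertical axis, a span of 2.8 units in every panel) of each contractile gene in the 18 arrays, by group; circles are arrays, and the bar beside them is the mean ± SD of 3 arrays. TAGLN separates into high arrays (YAP/TAZ, ESR1 and control, 7.70 to 8.67) and low arrays (the other groups, 6.11 to 6.56), ACTA2 is highest with both cDNAs, and the remaining panels move over a much smaller range.

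TAGLN encodes transgelin, an actin-binding protein of smooth muscle that is often used as its early marker, and it was the gene with the widest range here. It was read at 6.54, 6.47 and 6.43 in the shLATS1B arrays, and at 6.43, 6.12 and 6.45 in the arrays labelled shLATS1+2. With YAP/TAZ plus ESR1 cDNA it was at 6.19, 6.56 and 6.11. The arrays with a single cDNA lay higher, at 7.91, 7.70 and 8.09 for YAP/TAZ and 8.14, 8.06 and 7.98 for ESR1, and the control arrays were at 8.38, 8.67 and 8.46. No array of the first 3 groups reached any array of the last 3, and every array of the 5 altered groups lay below the 3 control arrays. The order of group means ran from YAP/TAZ plus ESR1 (6.29 ± 0.24) through shLATS1+2 (6.33 ± 0.18), shLATS1B (6.48 ± 0.056), YAP/TAZ (7.90 ± 0.19) and ESR1 (8.06 ± 0.078) to control (8.51 ± 0.15; SD, n = 3 each). Arrays of neighbouring groups overlapped among the lowest 3, and also between YAP/TAZ and ESR1.

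Against the control arrays TAGLN fell 4.07-fold with shLATS1B (log2 change -2.02 ± 0.12 SE; limma, adjusted p = 1.68e-09), 4.51-fold in the arrays labelled shLATS1+2 (-2.17 ± 0.12, adjusted p = 8e-10) and 4.66-fold with both cDNAs (-2.22 ± 0.12, adjusted p = 4.3e-10). It also fell with each single cDNA, 1.52-fold with YAP/TAZ (-0.60 ± 0.12, adjusted p = 0.00433) and 1.36-fold with ESR1 (-0.45 ± 0.12, adjusted p = 0.015). TAGLN was thus the only one of the 10 that changed in all 5 comparisons with the control, which share the same 3 control arrays. With ESR1, TAGLN no longer passed without control array 2 (-0.36, adjusted p = 0.0789) or without ESR1 array 3 (-0.41, adjusted p = 0.0637). The other 4 calls were kept under every alternative run, with changes from -2.36 to -1.94 in the first 3 comparisons. Some alternatives leave out an array of a group outside the comparison. They cannot move the change and act only on the spread and adjusted p. In RNA from whole cultures, fewer cells that make a transcript and less of it per cell cannot be told apart.

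The range of TAGLN's group means, 2.22 log2 units, was wider than that of 99.55% of all genes. That of ACTA2, 0.88, stood at the percentile 94.71, that of MYL9, 0.58, at 85.92, and that of CNN1, 0.099, at 20.83. Centred on its mean, TAGLN was followed most closely over the 18 arrays by DNER, a surface ligand of Notch receptors (root mean square difference 0.206 log2 units), KRT14, a basal keratin (0.261), FLRT3, a membrane adhesion protein (0.293), ABLIM3, an actin-binding LIM protein (0.303), and AOX1, aldehyde oxidase (0.31). Of the other 9 contractile genes MYL9 came closest, in place 335 of all genes (0.714). ACTG2 was in place 4078 and ACTA2 in place 17920 (1.21). The measure is not scaled to a gene's range, so a gene of like order but smaller range scores as distant. By group means MYL9, like TAGLN, was highest in the control arrays, then ESR1, then YAP/TAZ. These places describe likeness over 18 arrays that share their groups.

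KRT14 had mean levels of 7.85 ± 0.23 with shLATS1B, 8.06 ± 0.034 in the arrays labelled shLATS1+2, 8.15 ± 0.086 with both cDNAs, 9.70 ± 0.17 with YAP/TAZ, 9.65 ± 0.30 with ESR1 and 10.43 ± 0.18 in the control arrays (SD, n = 3 each). DNER was at 7.34 ± 0.075, 7.54 ± 0.067 and 7.29 ± 0.044 in the same first 3 groups, against 9.22 ± 0.035, 9.07 ± 0.029 and 9.45 ± 0.060 in the YAP/TAZ, ESR1 and control arrays. ABLIM3 parted from TAGLN in the single cDNA arrays, where it stood at 9.63 ± 0.060 and 9.62 ± 0.074, above the control arrays at 9.39 ± 0.080.

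**Figure D2:**
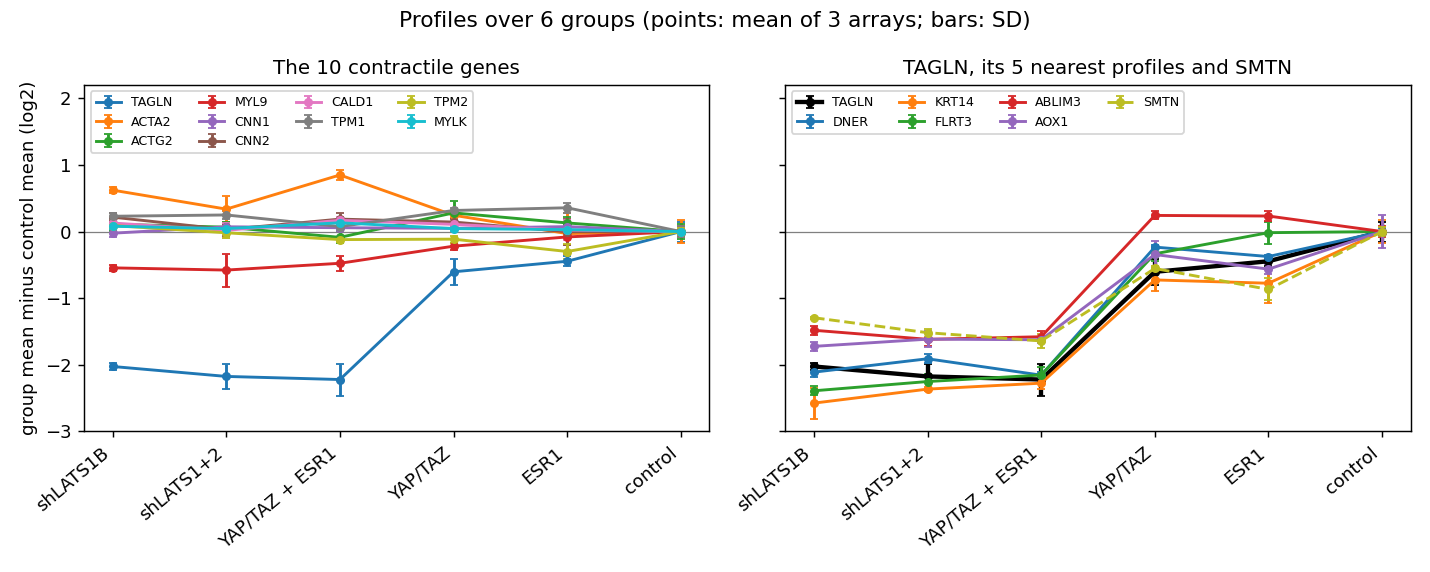
Group means relative to the control mean (log2 units, vertical axis) across the 6 groups, for the 10 contractile genes on the left and for TAGLN with its 5 closest profiles and SMTN on the right; points are means of 3 arrays, bars are SD, and lines only join the points of a gene. TAGLN falls to -2.22 while ACTA2 reaches 0.85, and KRT14, DNER, FLRT3, AOX1 and SMTN go down with TAGLN in the 3 groups on the left.

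ACTA2, alpha smooth muscle actin, moved the opposite way to TAGLN. It was read at 9.98, 10.04 and 9.96 in the shLATS1B arrays, at 9.79, 9.85 and 9.48 in the arrays labelled shLATS1+2, and at 10.14, 10.27 and 10.25 with both cDNAs. YAP/TAZ arrays were at 9.60, 9.59 and 9.67, ESR1 arrays at 9.69, 9.11 and 9.22, and control arrays at 9.57, 9.28 and 9.26. All shLATS1B, YAP/TAZ plus ESR1 and YAP/TAZ arrays lay above every control array, while the shLATS1+2 and ESR1 arrays overlapped with the control arrays. ACTA2 rose 1.80-fold with both cDNAs (log2 change 0.85 ± 0.12 SE; limma, adjusted p = 4.7e-05) and 1.54-fold with shLATS1B (0.62 ± 0.12, adjusted p = 0.00115). In the arrays labelled shLATS1+2 the difference was 0.34 ± 0.12 and missed the threshold (adjusted p = 0.0588, 95% interval 0.074 to 0.60), and without array 3 of that group it was 0.45 and passed (adjusted p = 0.0183), as it did without control array 1 (0.44, adjusted p = 0.0235). With YAP/TAZ alone the difference was 0.24 ± 0.12 (adjusted p = 0.338), and with ESR1 alone -0.030 ± 0.12 (adjusted p = 0.909).

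ACTG2, the gamma smooth muscle actin typical of gut and bladder muscle, had group means from 6.10 to 6.46. It was read at 6.18, 6.36 and 6.34 with shLATS1B, at 6.20, 6.33 and 6.21 in the arrays labelled shLATS1+2, at 6.12, 6.17 and 6.01 with both cDNAs, at 6.54, 6.25 and 6.60 with YAP/TAZ, at 6.40, 6.32 and 6.22 with ESR1, and at 6.32, 6.10 and 6.14 in the control arrays. Groups overlapped throughout, other than both cDNAs with YAP/TAZ or ESR1 alone, and both cDNAs with either knockdown. It passed in no comparison with the control arrays. Its largest difference there was 0.28 ± 0.086 with YAP/TAZ (adjusted p = 0.0655, 95% interval 0.097 to 0.46), which passed without YAP/TAZ array 2 (0.38, adjusted p = 0.00961) and without control array 1 (0.35, adjusted p = 0.0328).

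MYL9, the regulatory light chain of smooth muscle and non-muscle myosin II, fell where TAGLN fell most, but by less. It was read at 8.16, 8.14 and 8.22 in the shLATS1B arrays, at 8.25, 8.32 and 7.86 in the arrays labelled shLATS1+2, and at 8.18, 8.38 and 8.17 with both cDNAs, against 8.65, 8.70 and 8.82 in the control arrays. Each of these 9 arrays lay below every control array. The YAP/TAZ arrays were at 8.54, 8.44 and 8.53 and the ESR1 arrays at 8.64, 8.52 and 8.75. MYL9 fell 1.46-fold with shLATS1B (log2 change -0.54 ± 0.097 SE; limma, adjusted p = 0.000429), 1.49-fold in the arrays labelled shLATS1+2 (-0.58 ± 0.097, adjusted p = 0.00025) and 1.39-fold with both cDNAs (-0.48 ± 0.097, adjusted p = 0.00107). These 3 calls were kept in all 27 alternatives of each, including those that cannot move the change. With array 3 labelled shLATS1+2 left out, the change in that group was -0.44 (adjusted p = 0.00051). The differences with YAP/TAZ (-0.22 ± 0.097, adjusted p = 0.247) and with ESR1 (-0.081 ± 0.097, adjusted p = 0.637) did not pass.

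MYLK, the kinase that phosphorylates this light chain and so starts contraction, was dim in every group. Its 18 arrays lay between 5.05 and 5.25, with a median of 5.12, and all 6 group means were under the cutoff of 5.21. It passed once, as higher with both cDNAs (5.21 ± 0.044 against 5.08 ± 0.018 in the control arrays, SD, n = 3 each; log2 difference 0.13 ± 0.042 SE; limma, adjusted p = 0.0245). That call was lost in 4 of 26 alternatives, and a difference of this size between means that are both under the cutoff gives no fold.

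The calponins and caldesmon bind actin filaments and restrain the myosin motor. CNN1, basic calponin, the calponin most typical of smooth muscle, lay between 5.72 and 5.94 in all 18 arrays, and it passed in none of the comparisons. CNN2, calponin 2, which many cell types make, lay between 10.83 and 11.23. Its mean was 11.19 ± 0.056 with shLATS1B and 10.98 ± 0.068 in the control arrays (SD, n = 3 each), a difference of 0.22 ± 0.079 that missed the threshold (adjusted p = 0.059), although the arrays did not overlap. CNN2 passed in 7 of 27 alternatives of that comparison, the fit without control array 1 among them (0.25, adjusted p = 0.0498). CALD1, caldesmon, lay between 9.28 and 9.61, and its largest difference from the control arrays was with both cDNAs, 9.56 ± 0.052 against 9.39 ± 0.035 (0.17 ± 0.065, adjusted p = 0.0639). CNN1, CNN2 and CALD1 thus spanned at most 0.22 log2 units between group means, against 2.22 for TAGLN.

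Tropomyosins lie along the actin filament and gate its contact with myosin, and the pair measured here differed. TPM1 was read at 7.86, 7.87 and 7.78 with shLATS1B, at 7.93, 7.82 and 7.82 in the arrays labelled shLATS1+2, at 7.70, 7.62 and 7.73 with both cDNAs, at 7.90, 7.90 and 7.97 with YAP/TAZ, at 7.89, 8.02 and 7.99 with ESR1, and at 7.62, 7.52 and 7.68 in the control arrays. Both knockdowns and both single cDNAs lay wholly above the control arrays, and the arrays with the combined cDNAs overlapped them. TPM1 rose 1.28-fold with ESR1 (log2 change 0.36 ± 0.053 SE; limma, adjusted p = 0.000172), 1.25-fold with YAP/TAZ (0.32 ± 0.053, adjusted p = 0.00116), 1.19-fold in the arrays labelled shLATS1+2 (0.25 ± 0.053, adjusted p = 0.0021) and 1.17-fold with shLATS1B (0.23 ± 0.053, adjusted p = 0.00392). With both cDNAs the difference was 0.075 ± 0.053 (adjusted p = 0.36). The 4 rises were kept in all 27 alternatives of each, including those that cannot move the change.

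TPM2 was read at 10.11, 10.16 and 10.08 with shLATS1B, at 10.08, 10.01 and 9.93 in the arrays labelled shLATS1+2, at 9.89, 9.88 and 9.95 with both cDNAs, at 9.92, 9.86 and 9.96 with YAP/TAZ, at 9.85, 9.68 and 9.65 with ESR1, and at 10.06, 10.04 and 9.98 in the control arrays. The ESR1 arrays were the lowest group, below every control array, and TPM2 fell 1.23-fold there (log2 change -0.30 ± 0.055 SE; limma, adjusted p = 0.00108). In the fit of the ESR1 and control arrays alone that call was lost (adjusted p = 0.0532), and without ESR1 array 1 the change was -0.36 (adjusted p = 8.19e-05). TPM2 did not pass in the other 4 comparisons with the control, in which the differences ran from -0.12 to 0.090.

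**Figure D3:**
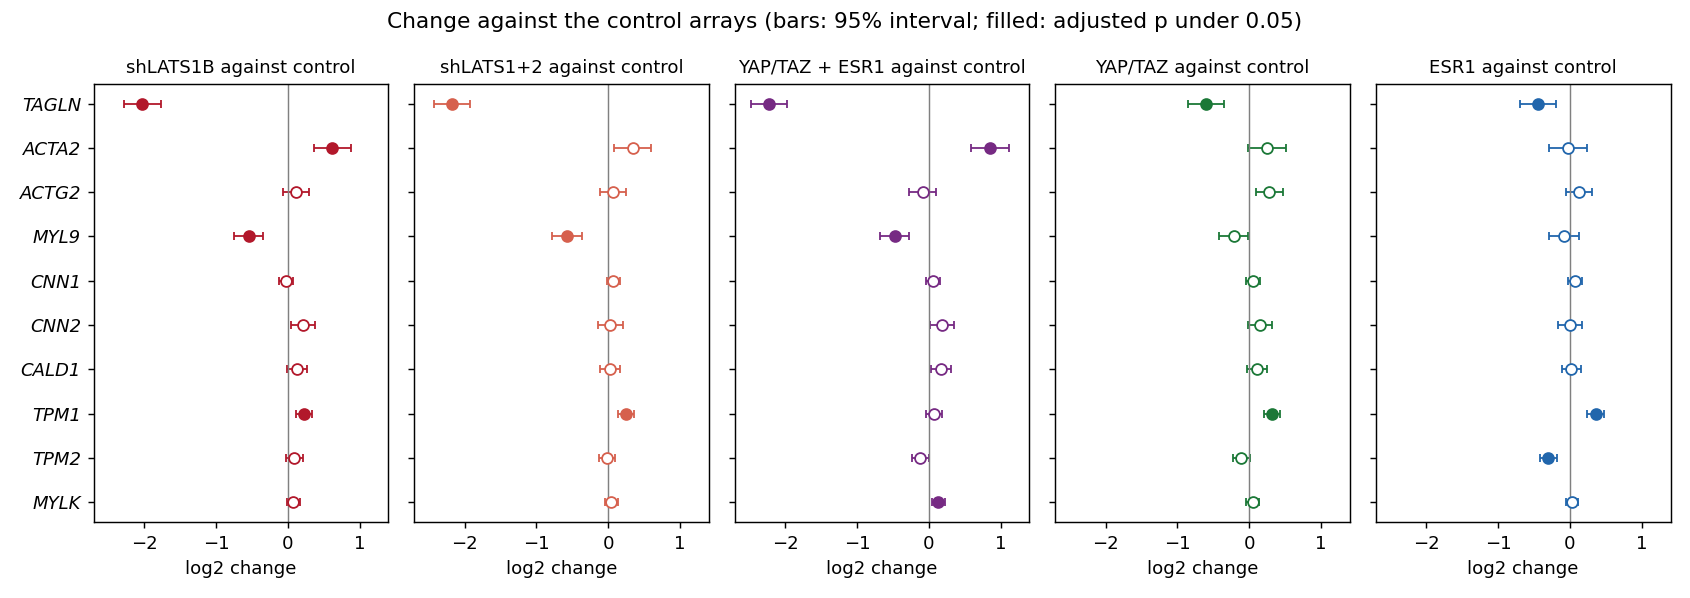
Log2 change against the control arrays (horizontal axis) of the 10 contractile genes in 5 comparisons that share the 3 control arrays; points are estimates, bars are 95% intervals of the moderated fit, and filled points have an adjusted p under 0.05. TAGLN is filled and left of 0 in all 5 panels, from -2.22 to -0.45, MYL9 is filled in the first 3, and TPM1 is filled and right of 0 in all panels but that of both cDNAs.

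Counted by comparison, 4 of the 10 genes changed with shLATS1B, 2 higher (ACTA2, TPM1) and 2 lower (TAGLN, MYL9), where 24% of all genes changed. In the arrays labelled shLATS1+2, 3 changed, TPM1 higher and TAGLN and MYL9 lower, where 24.8% of all genes changed. With both cDNAs 4 changed, ACTA2 and MYLK higher and TAGLN and MYL9 lower, against 29.4% of all genes. With YAP/TAZ 2 changed, TPM1 higher and TAGLN lower, against 7%. With ESR1 3 changed, TPM1 higher and TAGLN and TPM2 lower, against 18.9%. The shares of the 10 genes, 40%, 30%, 40%, 20% and 30% in that order, were each above the share of all genes, but 1 gene makes up 10% of the list and the difference was not tested. Their median log2 changes were 0.10, 0.037, 0.066, 0.078 and 0.010 in the same order, beside medians of all genes of -0.0059, -0.0080, -0.0043, -0.00090 and 0.0021. On the deposited values the list's median was thus slightly above 0 in each comparison. Centring array medians moved the median of all genes from -0.0080 to -0.051 in the arrays labelled shLATS1+2. With ESR1 it moved from 0.0021 to -0.063, so the sign of the list's median depends on the normalization in these 2 comparisons. The most extreme member was TAGLN, from -2.22 with both cDNAs to -0.45 with ESR1, where TPM1 was at 0.36.

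The knockdowns were also set against each other, to ask whether the hairpins differ. No contractile gene passed when shLATS1+2-labelled arrays were set against shLATS1B arrays, where 0.321% of all genes passed (59 of 18404 with limma). ACTA2 (-0.29 ± 0.12 SE; limma, adjusted p = 0.406), CNN2 (-0.19 ± 0.079, adjusted p = 0.399) and CNN1 (0.096 ± 0.045, adjusted p = 0.426) had an unadjusted p under 0.05. None of these 3 passed after adjustment. How many of all genes lie under that unadjusted threshold is not given here, so these 3 are not read as differing between the knockdowns. For TAGLN the difference was -0.15 ± 0.12, with a 95% interval of -0.40 to 0.10.

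Comparing both cDNAs with each knockdown asks how alike these groups are without the control arrays. Against shLATS1B, 1 of 10 contractile genes changed, TPM2, which was 1.16-fold lower with both cDNAs (log2 change -0.21 ± 0.055 SE; limma, adjusted p = 0.019), where 11.1% of all genes changed. Against the arrays labelled shLATS1+2, 2 of 10 changed, where 19.8% of all genes did. ACTA2 was 1.43-fold higher with both cDNAs (0.51 ± 0.12, adjusted p = 0.00781), and TPM1 was 1.13-fold lower (-0.17 ± 0.053, adjusted p = 0.03). The ACTA2 call was lost without array 3 labelled shLATS1+2 (0.40, adjusted p = 0.0533). The TPM1 call was lost in 7 of 27 alternatives and the TPM2 call in 5 of 27. TAGLN differed by -0.20 ± 0.12 from shLATS1B (95% interval -0.45 to 0.058) and by -0.047 ± 0.12 from shLATS1+2 (-0.30 to 0.21), so differences of up to 0.45 log2 units between these low groups are within the intervals.

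Whether the YAP/TAZ cDNA had the same effect with and without ESR1 cDNA was tested as an interaction, the difference between both cDNAs and ESR1 alone minus the difference between YAP/TAZ and control. It passed for 5 of the 10 genes, where 19.1% of all genes passed. TAGLN differed by -1.77 between both cDNAs and ESR1 alone (6.29 and 8.06) and by -0.60 between YAP/TAZ and control (7.90 and 8.51). The interaction of TAGLN was -1.17 ± 0.17 SE (limma, adjusted p = 0.000126). TPM1 was lower with both cDNAs than with ESR1 alone (7.68 and 7.97) and higher with YAP/TAZ than in the control arrays (7.92 and 7.61), an interaction of -0.60 ± 0.075 (adjusted p = 3.18e-05). ACTG2 had the same pattern of signs (6.10 and 6.31, then 6.46 and 6.18), with -0.50 ± 0.12 (adjusted p = 0.00872). ACTA2 (10.22 and 9.34, then 9.62 and 9.37) had a positive interaction of 0.63 ± 0.17 (adjusted p = 0.0178), as did TPM2 (9.91 and 9.73, then 9.91 and 10.03), with 0.29 ± 0.078 (adjusted p = 0.0148). For ACTA2 the call was lost without control array 1, ESR1 array 2 or ESR1 array 3 (0.52 to 0.58, adjusted p from 0.0505 to 0.0536). The arrays with both cDNAs and those with ESR1 alone lie on opposite sides of the first principal component, and YAP/TAZ and control arrays on the same side.

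**Figure D4:**
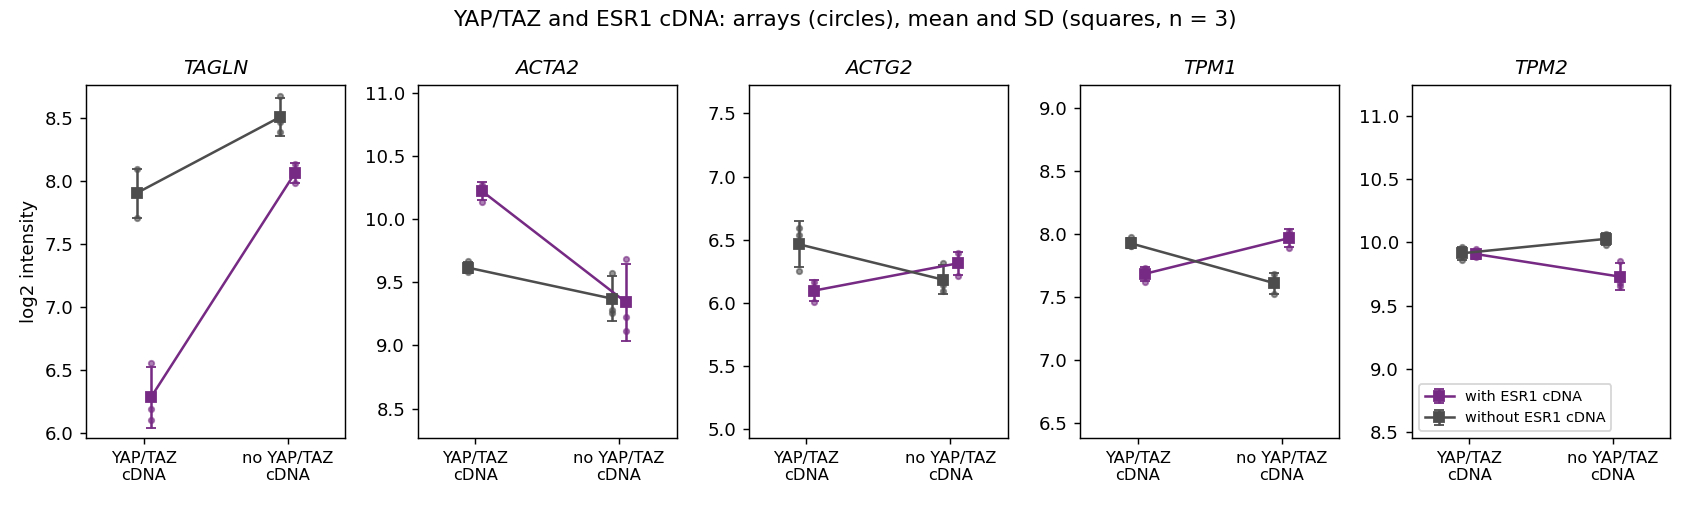
Log2 intensity (vertical axis, a span of 2.8 units) with YAP/TAZ cDNA (left in each panel) and without it (right), for cells with ESR1 cDNA (purple) and without it (grey), for the 5 contractile genes whose interaction passed; circles are arrays, squares are means and bars are SD of 3 arrays. The ends of the purple TAGLN line differ by -1.77 and those of the grey line by -0.60, and the lines of TPM1 and ACTG2 cross.

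Relatives of the 10 genes were compared, since probes can read near-identical copies. Of 14 listed paralogs 13 were measured, among them the cytoplasmic actins and non-muscle light chains. None rose in the 5 comparisons with the control. With shLATS1B 1 fell, in the arrays labelled shLATS1+2 3, with both cDNAs 4, with YAP/TAZ 0 and with ESR1 1. In the same order 24%, 24.8%, 29.4%, 7% and 18.9% of all genes changed. Neither this list nor those below were tested against these shares. TPM4, the tropomyosin of non-muscle filaments, fell 1.27-fold with shLATS1B (log2 change -0.35 ± 0.049 SE; limma, adjusted p = 5.2e-05), 1.28-fold in the arrays labelled shLATS1+2 (-0.36 ± 0.049) and 1.34-fold with both cDNAs (-0.42 ± 0.049). TAGLN2, the transgelin of most non-muscle cells, fell by less than TAGLN: it changed by -0.22 ± 0.055 in the arrays labelled shLATS1+2, -0.16 ± 0.055 with both cDNAs and -0.17 ± 0.055 with ESR1. The light chain MYL6 fell 1.27-fold with both cDNAs (-0.35 ± 0.072).

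Other contractile and cytoskeletal genes, 15 of 16 measured, gave 3 higher and 1 lower with shLATS1B, 1 and 4 in the arrays labelled shLATS1+2, 2 and 1 with both cDNAs, and 1 and 1 with each single cDNA. Of all genes 24%, 24.8%, 29.4%, 7% and 18.9% changed with shLATS1B, shLATS1+2, both cDNAs, YAP/TAZ and ESR1. SMTN, smoothelin, a protein of contractile smooth muscle, was the gene of this list that fell in all 5. It was read at 7.97, 7.99 and 7.99 with shLATS1B, at 7.82, 7.75 and 7.71 in the arrays labelled shLATS1+2, at 7.51, 7.70 and 7.69 with both cDNAs, at 8.69, 8.76 and 8.71 with YAP/TAZ, at 8.59, 8.28 and 8.35 with ESR1, and at 9.34, 9.20 and 9.29 in the control arrays. All control arrays lay above all others, and SMTN fell 2.45-, 2.86-, 3.12-, 1.47- and 1.83-fold in that order of groups (log2 changes -1.29, -1.52, -1.64, -0.55 and -0.87, each ± 0.070 SE). VCL, vinculin, a protein of focal adhesions, rose 1.28-fold with shLATS1B (0.36 ± 0.070) and 1.15-fold in the arrays labelled shLATS1+2 (0.20 ± 0.070), and ZYX, zyxin, another, 1.25-fold with shLATS1B (0.32 ± 0.084) and 1.22-fold with both cDNAs (0.29 ± 0.084). TLN1, talin, and ACTN1, alpha-actinin, which also occur in focal adhesions, fell in the arrays labelled shLATS1+2 (-0.51 ± 0.17 and -0.36 ± 0.084), the group in which array 3 was the lowest in 14 of 15 genes of this list. MYH11, smooth muscle myosin heavy chain, had group means under the cutoff in all groups but the control, where its arrays were at 5.24, 5.24 and 5.22. SYNPO2, an actin-binding protein of smooth muscle, was dim in every group, with means from 4.69 to 4.76.

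Of the genes that regulate this programme, 15 of 16 were measured. With shLATS1B 5 rose and 2 fell, in the arrays labelled shLATS1+2 3 and 4, and with both cDNAs 3 and 2. With YAP/TAZ 1 rose and 1 fell, and with ESR1 1 and 4. Shares of all genes that changed were 24%, 24.8%, 29.4%, 7% and 18.9% in the same order. SRF itself had means of 9.22 ± 0.088 with shLATS1B, 8.97 ± 0.093 in the arrays labelled shLATS1+2, 9.51 ± 0.085 with both cDNAs, 9.41 ± 0.039 with YAP/TAZ, 9.35 ± 0.25 with ESR1 and 9.28 ± 0.094 in the control arrays (SD, n = 3 each). It fell in the arrays labelled shLATS1+2 (log2 change -0.31 ± 0.094 SE by limma, adjusted p = 0.0215) and passed in none of the other 4. In that group array 3 was the lowest in 10 of 15 genes of this list. How the SRF call fares under the alternatives was not examined. MYOCD, myocardin, the co-activator that drives smooth muscle genes, was dim, with group means from 4.68 to 4.76. LIMK2, a kinase that stabilises actin filaments by phosphorylating cofilin, rose in all 5, with changes of 0.53 ± 0.072, 0.43 ± 0.072, 0.87 ± 0.072, 0.38 ± 0.072 and 0.29 ± 0.072 with shLATS1B, shLATS1+2, both cDNAs, YAP/TAZ and ESR1. DIAPH1, a formin that builds actin filaments under RhoA, fell in all 5, with changes of -0.30 ± 0.058, -0.40 ± 0.058, -0.41 ± 0.058, -0.26 ± 0.058 and -0.29 ± 0.058. MRTFB, a myocardin-related co-activator, rose with both cDNAs (0.48 ± 0.092) and with shLATS1B (0.28 ± 0.092).

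The 10 genes, read as myoepithelial features, were set beside markers of the cell types. The basal keratin KRT5 had group means from 12.27 to 12.69. None of the 12 basal markers measured was under the cutoff for dim genes. Of the 10 contractile genes only MYLK was under it, in every group, and brightness does not compare levels between genes. Of 17 basal and myoepithelial markers 12 were measured. With shLATS1B 1 rose and 8 fell, in the arrays labelled shLATS1+2 1 and 8, with both cDNAs 1 and 7, with YAP/TAZ 0 and 2, and with ESR1 1 and 3. Their median log2 changes were -0.33, -0.46, -0.19, 0.019 and -0.062. In the same order 24%, 24.8%, 29.4%, 7% and 18.9% of all genes changed. KRT14 fell 5.96-fold with shLATS1B (log2 change -2.57 ± 0.14 SE; limma, adjusted p = 4.76e-10), and MME, the myoepithelial surface peptidase CD10, fell 3.44-fold (-1.78 ± 0.12). NGFR, the nerve growth factor receptor of basal cells, rose 2.66-fold there (1.41 ± 0.083).

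The level of that list, as the mean over its 12 genes in an array, was 9.38 to 9.44 with shLATS1B, 9.29 to 9.36 in the arrays labelled shLATS1+2, 9.44 to 9.50 with both cDNAs, 9.86 to 9.88 with YAP/TAZ, 9.69 to 9.89 with ESR1 and 9.85 to 9.97 in the control arrays. All arrays of the first 3 groups were below all control arrays, as they were for TAGLN and MYL9. The YAP/TAZ and ESR1 arrays overlapped with the control arrays. The split was not particular to basal markers. In the same 3 groups the paralog list's mean was at most 9.07, against 9.11 or more in the control arrays. The stromal list described below was at most 5.28 there, against 5.38 or more. The mean over the 19 measured of 20 luminal markers was 7.83 to 7.84, 7.78 to 7.86, 7.80 to 7.91, 7.65 to 7.70 and 7.72 to 7.81 in the same first 5 groups, against 7.53 to 7.60 in the control arrays. Of them 7 rose and 3 fell with shLATS1B, 7 and 3 in the arrays labelled shLATS1+2, 9 and 2 with both cDNAs, 3 and 1 with YAP/TAZ, and 5 and 0 with ESR1, and their median log2 changes were small, at 0.058, 0.012, 0.19, 0.060 and 0.059. Beside these counts, 24%, 24.8%, 29.4%, 7% and 18.9% of all genes changed in that order. ESR1, the gene of the transfected cDNA, is itself on the luminal list. It enters the list means and the rises with ESR1 cDNA (0.94) and with both cDNAs (0.50). ESR1 also rose with shLATS1B (0.85) and in the arrays labelled shLATS1+2 (0.88). The largest rises with the knockdowns were of the transcription factor ELF3 (2.28 ± 0.11 with shLATS1B and 2.48 ± 0.11 in the arrays labelled shLATS1+2). MUC1, a mucin on the same list, fell with shLATS1B (-0.81 ± 0.16) and rose with both cDNAs (0.75 ± 0.16). The part of these markers in the changes of the contractile genes was not tested.

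Markers of stroma and vascular smooth muscle, the other cells that make contractile genes, had a mean level near the cutoff for dim genes. In the control arrays 7 of the 16 were under it. Of 16, 9 lay under the cutoff over all arrays, PDGFRB and RGS5 among them, and the list's mean level was 5.23 to 5.24 with shLATS1B, 5.19 to 5.22 in the arrays labelled shLATS1+2, 5.25 to 5.28 with both cDNAs, 5.34 to 5.38 with YAP/TAZ, 5.34 to 5.38 with ESR1 and 5.38 to 5.50 in the control arrays. Where 24%, 24.8%, 29.4%, 7% and 18.9% of all genes changed, the counts of this list were as follows. They were 0 higher and 2 lower with shLATS1B, 0 and 4 in the arrays labelled shLATS1+2, and 1 and 2 with both cDNAs. With YAP/TAZ they were 0 and 1, and with ESR1 1 and 1. DCN, decorin, a matrix proteoglycan, was in every one of these sets of lower genes, at 4.52 ± 0.061 with shLATS1B and 6.67 ± 0.60 in the control arrays (SD, n = 3 each). DCN was under the cutoff in all groups but the control, where its arrays were at 6.02, 6.77 and 7.21. FAP, a surface protease of activated fibroblasts, was at 4.79, 4.89 and 4.88 with shLATS1B, at 4.92, 4.89 and 4.86 in the arrays labelled shLATS1+2 and at 4.79, 4.77 and 4.84 with both cDNAs, against 5.95, 6.71 and 6.26 in the control arrays. FAP fell in these 3 groups (log2 changes -1.45, -1.42 and -1.51, each ± 0.15 SE), which are those where TAGLN fell most, and it was under the cutoff in all 3. It did not pass with YAP/TAZ (0.22 ± 0.15) or ESR1 (-0.16 ± 0.15), and its interaction was -1.56 ± 0.21 (limma, adjusted p = 7.32e-05). The part of the stromal markers in the fall of TAGLN was not tested.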

How the data were processed

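Expression was measured in 18 arrays of MCF10A cells, 3 in each of 6 groups taken from the sample titles. The deposited log2 values were made by the authors with the R package affy, per the submitters' processing notes; its version, background correction and normalization were not given in the sources used here. The median of an array was 5.494 at the lowest and 5.619 at the highest. Of 32321 probe sets, 19158 had 1 gene symbol in the platform annotation, 1388 had several and 11775 none. Symbols were updated through a RefSeq table (GRCh38.p14; 19128 probe sets matched). Each of 18404 genes was represented by its brightest probe set on average, which was a choice between several for 637 genes and for none of the contractile genes.

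All arrays entered 1 limma model (limma 3.58.1, R 4.3.3) with a mean per group, 12 residual degrees of freedom and 3.94 added by moderation. Tests were two-sided and adjusted by Benjamini-Hochberg over the 18404 genes. In 9 comparisons each gene was called at an adjusted p under 0.05. The fit was tested on simulated data. An exact permutation test of 3 against 3 arrays cannot go below p = 0.1 and was not used. Centring of array medians, quantile normalization, a filter on dim genes, other probe set rules, another moderation, a fit of the compared groups alone and left-out arrays were tried as alternatives. Only centring, quantile normalization and left-out arrays of a compared group can move a contractile gene's log2 change. The others act on its spread and adjusted p, since each of these genes had 1 probe set.

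The contractile genes and the marker lists were chosen with earlier results of these data known. The rule for naming took all 10 contractile genes, the targeted genes and the 5 profiles nearest to the gene with the widest range. It also took up to 4 called genes per list and comparison with the largest change. Not all of these are named in the text, with LIMK1, ROCK1, TAGLN3 and DSG3 among those left out. KRT5, MYOCD, PDGFRB, RGS5 and SYNPO2 were named outside that rule, after their values were seen. The number of arrays limits the precision.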

Additional observations from a re-analysis of the deposited data

Results flagged for a closer look

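The difference between arrays with and without YAP/TAZ cDNA was not the same with and without ESR1 cDNA for 5 of the 10 contractile genes. This was read from the interaction term of the limma fit, which passed for 19.1% of all genes. It also passed for WWTR1 (0.92), YAP1 (0.37), ESR1 (-0.65) and LATS1 (0.64), whose part was not tested. Arrays with both cDNAs and those with ESR1 alone lie on opposite sides of the first principal component. The interaction term was -1.17 for TAGLN (adjusted p = 0.000126) and -0.598 for TPM1 (adjusted p = 3.18e-05). For ACTG2 it was -0.496 (adjusted p = 0.00872), a gene that passed in none of the 5 comparisons with the control arrays. It was 0.634 for ACTA2 (adjusted p = 0.0178) and 0.293 for TPM2 (adjusted p = 0.0148). The ACTA2 call was lost without control array 1, ESR1 array 2 or ESR1 array 3. TPM1 was higher with YAP/TAZ cDNA alone and with ESR1 cDNA alone than in the control arrays (7.92, 7.97 and 7.61), yet its mean with both cDNAs was 7.68.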

How the results depend on the processing

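Of 647 alternatives for changes of contractile genes that passed, 624 kept their side of the threshold, 23 lost it and 0 reversed. Many of the 647 could not move the change, only its spread and adjusted p, so they are not as many separate checks. Leaving out ESR1 array 1 and array 3 labelled shLATS1+2 together was an alternative chosen after seeing the data. It gave 7 called contractile genes with both cDNAs against control and 4 with YAP/TAZ against control. Over all genes the calls with YAP/TAZ grew there as well, from 1289 to 1945 of 18404. The share of all genes with both cDNAs under this alternative is not given here. Between both cDNAs and shLATS1B the count of 1 became 0 with array medians centred, 2 in the fit of the compared groups alone and 2 without both arrays, and ran from 0 to 1 with single arrays left out. Between both cDNAs and the arrays labelled shLATS1+2 the count of 2 became 1 with trend and robust moderation and 1 in the fit of the compared groups alone, and ran from 0 to 3 with single arrays left out. The cause was not tested.

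The remaining reversals were of differences that had not passed. With array medians centred, CNN2 was at -0.013 and CALD1 at -0.025 in the arrays labelled shLATS1+2 against control, CALD1 at -0.042 and MYLK at -0.035 with ESR1, TPM1 at -0.0056 between the knockdowns, and CNN1 at 0.024 between both cDNAs and shLATS1+2 and at 0.016 in the interaction. With quantile normalization, ACTG2 was at -0.0016 in the arrays labelled shLATS1+2, ACTA2 at 0.0048, CNN1 at -0.012, CNN2 at 0.022 and MYLK at -0.0097 with ESR1, CNN2 at 0.0067 between both cDNAs and shLATS1B, and CNN1 at 0.027 between both cDNAs and shLATS1+2 and at 0.023 in the interaction. Without both arrays, TPM2 was at 0.019 in the arrays labelled shLATS1+2, CALD1 at -0.056 with ESR1, MYL9 at 0.11 between the knockdowns, and TAGLN at 0.012, MYL9 at -0.041 and CNN1 at 0.0088 between both cDNAs and shLATS1+2.

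With single arrays left out, signs turned for CNN1 with shLATS1B (-0.049 to 0.0099); for CNN2 (-0.00063 to 0.082), CALD1 (-0.021 to 0.084) and TPM2 (-0.056 to 0.019) in the arrays labelled shLATS1+2; for ACTA2 (-0.20 to 0.084), CNN2 (-0.11 to 0.070), CALD1 (-0.056 to 0.086) and MYLK (-0.00027 to 0.058) with ESR1. They also turned for MYL9 (-0.12 to 0.11) and TPM1 (-0.016 to 0.038) between the knockdowns, for CNN2 (-0.064 to 0.020) between both cDNAs and shLATS1B, and for TAGLN (-0.18 to 0.043), MYL9 (-0.041 to 0.19) and CNN1 (-0.045 to 0.0088) between both cDNAs and shLATS1+2. In the interaction they turned for CNN2 (-0.026 to 0.16) and CALD1 (-0.025 to 0.12).

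With the replicate block, the counts of called contractile genes in the 9 comparisons were 4, 3, 4, 2, 3, 0, 1, 2 and 5, as without it. Correlations of deviations ran from -0.694 to 0.631 (median -0.083) between arrays of the same number. Between arrays of other numbers they ran from -0.633 to 0.533 (median 0.063). These ranges overlap and do not settle whether the numbers pair the arrays.

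Over all genes, the 1289 calls with YAP/TAZ became 848 without YAP/TAZ array 2 and 1945 without both arrays. The 3487 calls with ESR1 became 1126 in the fit of the compared groups alone, 5461 without ESR1 array 1, 2299 without ESR1 array 2 and 5776 without both arrays. The 59 calls between the knockdowns became 110 without ESR1 array 1, 33 and 35 without shLATS1B array 2 or 3, and 37 without array 3 labelled shLATS1+2. The 3644 calls between both cDNAs and shLATS1+2 became 2207 and 2323 without array 2 or 3 of both cDNAs and 2145 without array 3 labelled shLATS1+2. The 3512 interaction calls became 5607 without ESR1 array 1 and 5952 without both arrays. Centring the medians put 21.8% of ESR1 calls on the higher side, against 37.1%, and 72.7% of interaction calls, against 59.7%. Without array 3 labelled shLATS1+2 the higher share between the knockdowns was 56.8%, against 44.1%.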
